A study of Danio rerio with 6 samples.

Results

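Pyruvate and tricarboxylic acid (TCA) cycle genes were examined in hearts of zebrafish larvae that carry the mutant label and in hearts of their wild-type (WT) siblings. The set was given as 37 gene symbols, of which 36 matched a row by symbol among the 31701 genes of the deposited table; *idh2* is not analysed here. Whole hearts were taken by hand at 57 to 59 hours post fertilization. For each of the genotypes, 3 pools of 23 hearts, described as biological replicates, gave 1 RNA sequencing library each. The title of the series names Wwtr1 (Taz), a transcriptional coactivator that the Hippo kinases hold in check; the labels say only "mutant" and give no allele. All 6 libraries come from the same stage and tissue, so the genotype label is the only difference the design states. In a pool of whole hearts, fewer cells of a type and less RNA per cell cannot be told apart.

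As background, glycolysis ends in pyruvate, which the mitochondrial pyruvate carrier brings into the mitochondrial matrix. There the pyruvate dehydrogenase complex converts it to acetyl-CoA, kinases of the complex switch it off and phosphatases switch it on, and citrate synthase feeds the acetyl group into the cycle, whose dehydrogenases hand electrons to the respiratory chain. Heart muscle is rich in mitochondria and depends on this route for the energy of contraction.

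Values are normalised read counts, that is, the authors' scaled and rounded counts per gene. A read count grows with transcript length and no transcript lengths were used, so levels are compared between libraries and not between genes. Libraries summed to between 21068538 and 21968397 in mutant and between 19187058 and 25227868 in WT hearts, and ribosomal RNA genes took 41.0% to 41.4% of the mutant and 40.4% to 43.9% of the WT totals. Transcripts of *wwtr1* stood at 128, 151 and 100 in mutant hearts, against 362, 416 and 471 in WT hearts (log2 difference −1.72, SE 0.155, limma adjusted p = 0.000251), so the label and the gene named in the title go together in every library. Cardiomyocyte markers were abundant in every library, with the 10 markers summing to 417842 to 458701 in mutant and 412701 to 487491 in WT hearts.

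Of the 36 genes, 34 were tested; *pdha1b* and *pdk3b* stayed under the minimum, a value of 10 in any 3 libraries. None of the 34 passed the test of mutant against WT hearts by limma with Benjamini-Hochberg adjustment over all 18901 genes tested (lowest adjusted p = 0.536), where 7 genes passed, or 0.037% (2 higher, 0.0106%; 5 lower, 0.0265%). At an unadjusted p under 0.05 there were 3 members, or 8.82%, against 6.6% of all genes tested. The differences leaned one way: 24 of the 34 members, or 70.6%, had a log2 difference below 0 (lower in mutant hearts), against 50.5% of all genes tested. The median log2 difference was −0.14 over the members and −0.00 over all genes tested. All 3 mutant values lay below all 3 WT values in 10 members, or 29.4%, against 5.53% of all genes tested, and above them in 2, or 5.88%, against 5.57%. The 10 were *pdhb*, *dldh*, *pdhx*, *pdk3a*, *sucla2*, *suclg1*, *suclg2*, *fh*, *mdh2* and *me3*, and the 2 were *pdp1* and *idh1*.

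The members' median difference varied with single libraries and little with scaling. The count of members without overlap varied with both. Without WT replicate 1 the median difference was −0.074. With values scaled to the protein-coding total, 4 of the 34 members, in place of 10, had every mutant value below every WT value. They were *pdhx*, *pdk3a*, *suclg1* and *suclg2*. The share over all genes tested was 4.25%, and the members' median difference was −0.126. With 1 library left out there were between 10 and 17 such members of the 34 (17 without WT replicate 3). The share over all genes tested was then between 9.87% and 10.7%.

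**Figure D1:**
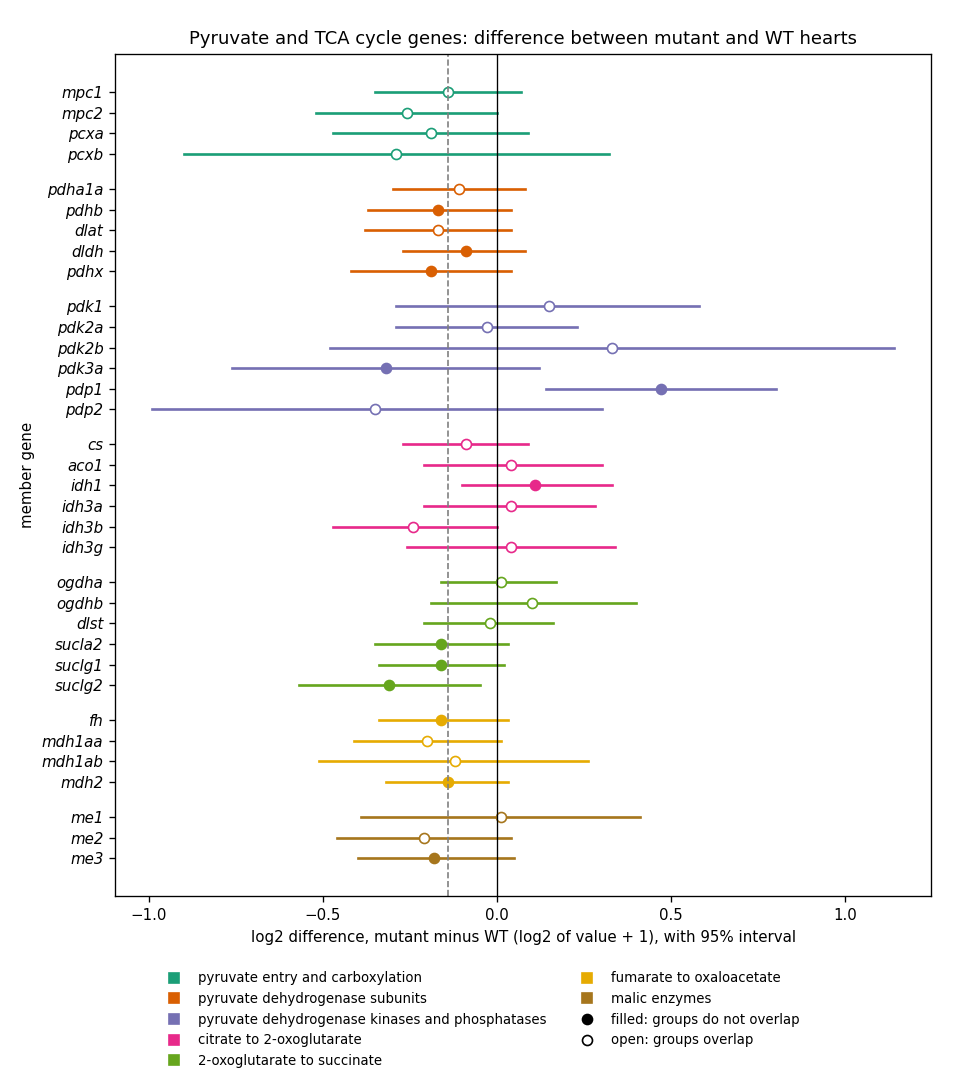
Log2 difference (mutant minus WT) of the 34 tested members with its 95% interval from limma, ordered and coloured by role; the dashed line is the members' median of −0.14. Filled points mark the 12 members whose groups do not overlap, and only the intervals of *pdp1*, *suclg2* and *mpc2* exclude 0, *mpc2* barely.

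Genes of pyruvate entry all had differences below 0, with a median of −0.22 over 4 members, and their groups overlapped. *mpc1* and *mpc2* encode the 2 subunits of the mitochondrial pyruvate carrier. *mpc2* (ENSDARG00000024478, chromosome 9, 34412812 to 34418287, GRCz10) stood at 489, 437 and 453 in mutant hearts, against 643, 568 and 456 in WT hearts (log2 difference −0.26, SE 0.121, unadjusted p = 0.049, limma adjusted p = 0.755). WT replicates 1 and 2 were above all mutant libraries and WT replicate 3 lay among them. The difference was −0.15 without WT replicate 1 and −0.40 without WT replicate 3. Over 15 alternative settings the unadjusted p of *mpc2* (limma) ran from 0.0031 to 0.247 and was under 0.05 in 7. *mpc1* (ENSDARG00000093448, chromosome 13, 151013 to 154950) had values of 785, 827 and 778 in mutant hearts, against 971, 900 and 771 in WT hearts (log2 difference −0.14, 95% interval −0.35 to 0.07). It shows the same order of libraries in WT hearts, with replicate 3 lowest. A second annotated gene on the same strand, zgc:64201, covers all 3938 bases of *mpc1*, so its values are uncertain. Genes annotated on the opposite strand overlap *pcxa*, *pcxb*, *pdha1b*, *pdk2b*, *ogdha*, *ogdhb*, *sucla2*, *mdh1ab* and *me1*, and whether the counting used strand is not stated. Pyruvate carboxylase, which makes oxaloacetate from pyruvate and so refills the cycle, is encoded by *pcxa* and *pcxb*. *pcxa* averaged 352 ± 41.6 in mutant and 403 ± 61.5 in WT hearts (SD, n = 3 each), and *pcxb* 111 ± 49.2 in mutant and 130 ± 34.5 in WT hearts (SD, n = 3 each). The *pcxb* libraries spread more than the groups differed, with mutant values of 116, 60 and 158 against WT values of 165, 128 and 96, and its 95% interval ran from −0.90 to 0.32.

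The subunits of the pyruvate dehydrogenase complex also stood below 0 throughout, with log2 differences between −0.19 and −0.09 in the 5 tested members. The complex has an E1 part (*pdha1a*, *pdhb*), an E2 core (*dlat*), an E3 part shared with other dehydrogenases (*dldh*) and an E3-binding protein (*pdhx*). *pdhx* (ENSDARG00000051756, chromosome 25, 36857607 to 36864690) stood at 278, 261 and 265 in mutant hearts, against 323, 306 and 289 in WT hearts (log2 difference −0.19, SE 0.108, limma adjusted p = 0.824). *dldh* stood at 831, 831 and 809 in mutant hearts, against 903, 876 and 860 in WT hearts, and *pdhb* at 704, 616 and 702 in mutant hearts, against 806, 750 and 712 in WT hearts. In these 3 genes every mutant value lay below every WT value, as in 5.53% of all genes tested. The nearest libraries of *pdhb* are 704 in mutant and 712 in WT hearts. With values scaled to the protein-coding total the groups of *dldh* and *pdhb* overlapped, and those of *pdhx* did not. *pdhb* lies on chromosome 22, as *wwtr1* does, 27.9 Mb away. *pdha1a* stood at 1135, 1068 and 1223 in mutant hearts, against 1303, 1233 and 1166 in WT hearts, and mutant replicate 3 lay above WT replicate 3. *dlat* averaged 1108 ± 57 in mutant and 1249 ± 153 in WT hearts (SD, n = 3 each), and WT replicate 1, at 1419, was its highest library. The second E1 alpha gene, *pdha1b*, was too low to test, at 10, 11 and 1 in mutant and 0, 0 and 2 in WT hearts.

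**Figure D2:**
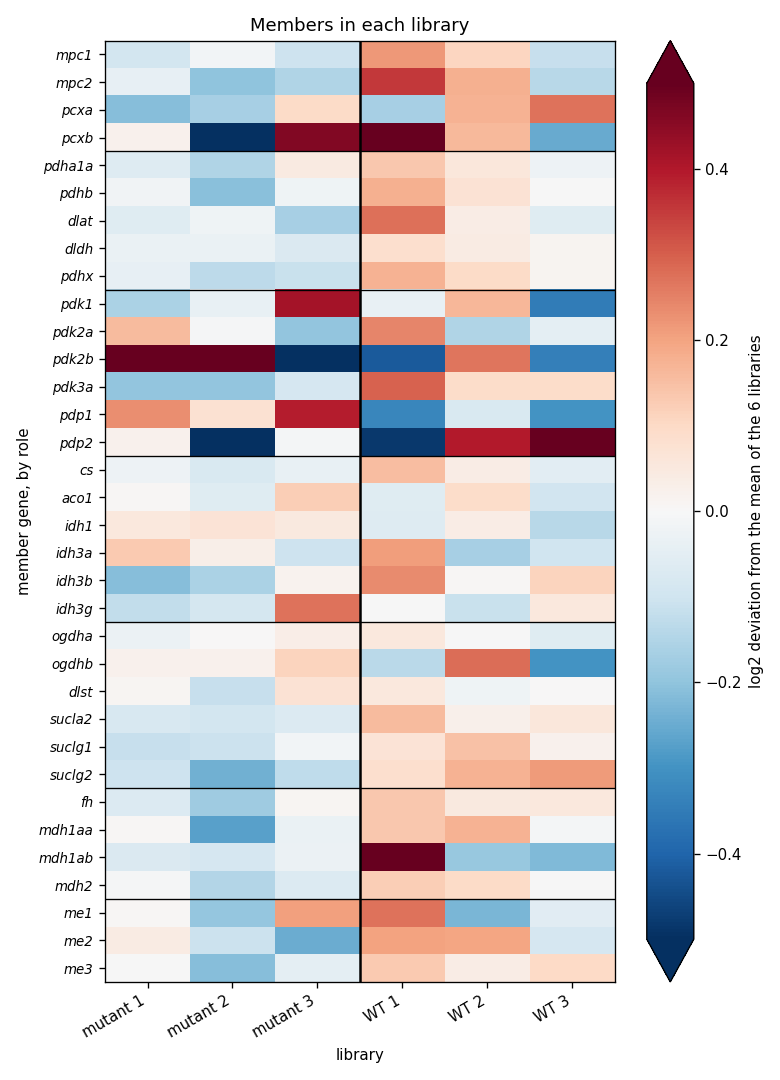
Log2 deviation of each tested member (rows, by role) from its mean over the 6 libraries (columns, mutant left of WT); colours saturate at 0.5 in either direction. WT replicate 1 is the highest library for 21 of the 34 members and mutant replicate 2 the lowest for 14.

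Regulators of the complex stood on both sides of 0: 3 of the 6 tested members were above 0 and 3 below. *pdp1*, the catalytic subunit of a phosphatase that reactivates the complex, was the member with the lowest unadjusted p. It (ENSDARG00000076308, chromosome 16, 26943311 to 26947192) stood at 145, 130 and 162 in mutant hearts, against 98, 117 and 100 in WT hearts. All mutant libraries were above all WT libraries, with a log2 difference of 0.47 (SE 0.154, 95% interval 0.14 to 0.80, unadjusted p = 0.0088, limma adjusted p = 0.536). Over 15 alternative settings its difference stayed between 0.39 and 0.55 and its adjusted p between 0.382 and 0.901. The second phosphatase gene, *pdp2*, had values of 43, 29 and 42 in mutant and 30, 56 and 65 in WT hearts, which overlap (log2 difference −0.35, 95% interval −0.99 to 0.30). Single libraries move this difference, which was −0.67 without WT replicate 1, −0.13 without WT replicate 3 and −0.17 without mutant replicate 2.

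The kinases phosphorylate and inactivate the E1 part. *pdk2a* stood at 645, 576 and 505 in mutant hearts, against 685, 521 and 560 in WT hearts (log2 difference −0.03, 95% interval −0.29 to 0.23). *pdk3a* stood at 48, 48 and 52 in mutant hearts, against 68, 59 and 59 in WT hearts, and did not overlap (log2 difference −0.32, SE 0.205, limma adjusted p = 0.854). *pdk1* averaged 94.3 ± 20.8 in mutant and 84.7 ± 15 in WT hearts (SD, n = 3 each). *pdk2b* was low, at 35, 33 and 15 in mutant and 17, 28 and 18 in WT hearts, and its SE of 0.379 was the largest of any tested member. Its log2 difference was 0.33, and between 0.12 (without mutant replicate 1) and 0.70 (without mutant replicate 3) with 1 library left out. *pdk3b* was not tested, with 0, 4 and 1 in mutant and 0, 3 and 3 in WT hearts.

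**Figure D3:**
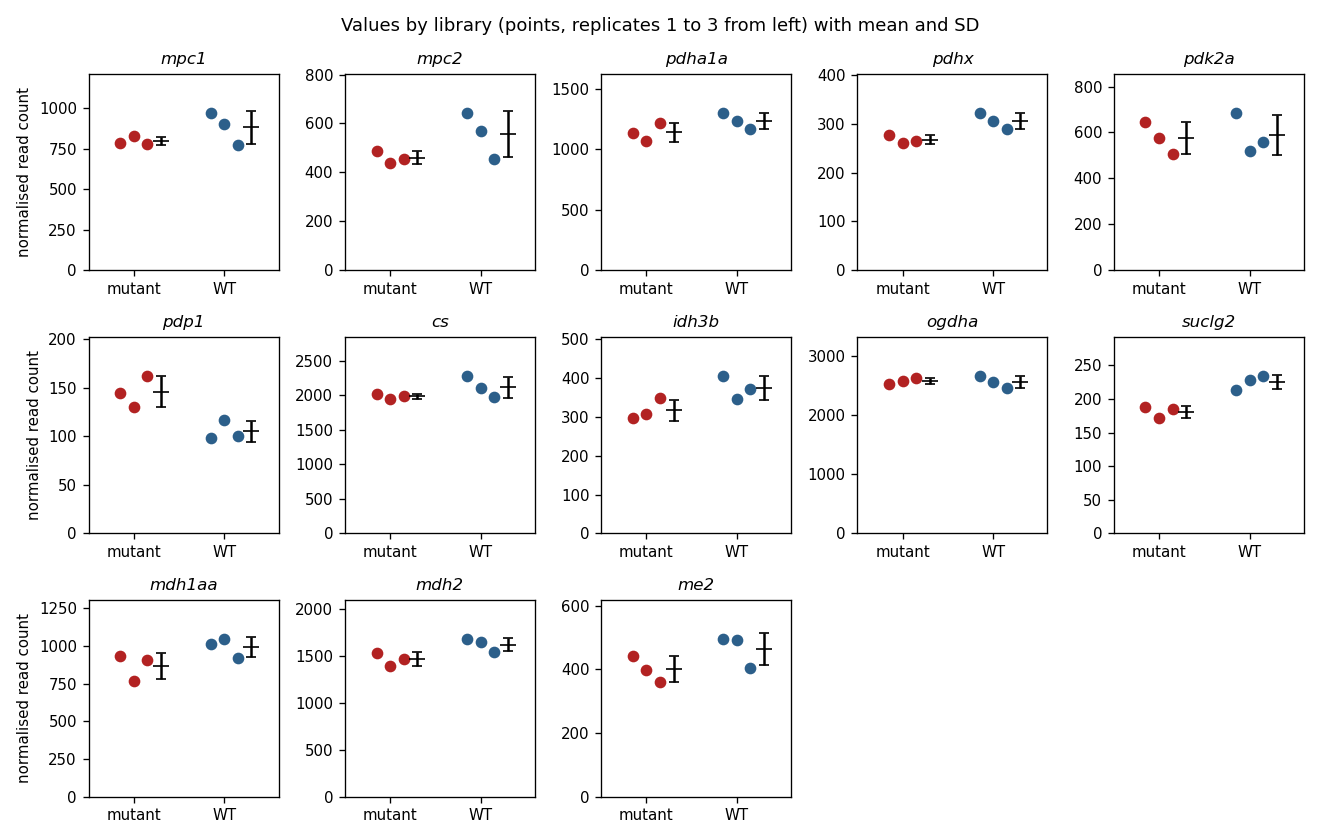
Normalised read counts in each library for the 13 members given by library under the naming rule (adjusted or unadjusted p under 0.05, or the highest mean or lowest p of a role); points are replicates 1 to 3 and bars are mean and SD (n = 3). Among these, *pdp1* alone has all mutant points above the WT points, and *pdhx*, *suclg2* and *mdh2* have all of them below.

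In the first span of the cycle, from citrate to 2-oxoglutarate, 2 of 6 members were below 0 and 4 above, with a median log2 difference of 0.04. Those above include *aco1* and *idh1*, whose enzymes are cytosolic. Of the mitochondrial members, *cs* and *idh3b* were below 0 (−0.09 and −0.24), and *idh3a* and *idh3g* were above (0.04 each). Citrate synthase, *cs*, which joins acetyl-CoA to oxaloacetate, stood at 2012, 1940 and 1992 in mutant hearts, against 2275, 2101 and 1972 in WT hearts (log2 difference −0.09, 95% interval −0.27 to 0.09). The mutant libraries were close together and lay between WT replicates 2 and 3, apart from mutant replicate 2, which was the lowest of all. The mitochondrial NAD-dependent isocitrate dehydrogenase is built from 3 kinds of subunit, and the catalytic *idh3a* averaged 481 ± 38.6 in mutant and 470 ± 67.1 in WT hearts, while *idh3g* averaged 180 ± 28.4 in mutant and 174 ± 10.1 in WT hearts (SD, n = 3 each). *idh3b* (ENSDARG00000044753, chromosome 21, 15637903 to 15653742) stood at 296, 308 and 348 in mutant hearts, against 405, 345 and 371 in WT hearts. Its groups overlap only by mutant replicate 3 and WT replicate 2 (log2 difference −0.24, SE 0.112, unadjusted p = 0.0529, limma adjusted p = 0.755). Whether the 3 subunit genes differ from one another in response was not tested.

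The cytosolic enzymes of this span stood slightly above 0. *idh1*, the NADP-dependent enzyme of cytosol and peroxisomes, had 393, 397 and 392 in mutant hearts, against 362, 389 and 344 in WT hearts. The groups do not overlap by a margin of 392 to 389, and the log2 difference was 0.11 (95% interval −0.10 to 0.33). *aco1*, the cytosolic aconitase that also acts as an iron regulatory protein, averaged 227 ± 14.7 in mutant and 220 ± 15.5 in WT hearts (SD, n = 3 each).

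From 2-oxoglutarate to succinate the dehydrogenase genes *ogdha*, *ogdhb* and *dlst* had log2 differences between −0.02 and 0.10. The E3 gene shared with other dehydrogenases, *dldh*, given above, stood at −0.09. The succinyl-CoA ligase genes stood below 0. *ogdha* and *dlst* encode the E1 and E2 parts of the 2-oxoglutarate dehydrogenase complex. *ogdha* stood at 2523, 2577 and 2634 in mutant hearts, against 2664, 2570 and 2468 in WT hearts. Its log2 difference was 0.01 (95% interval −0.16 to 0.17), with the smallest SE of any tested member, 0.0786. *dlst* averaged 1167 ± 77.4 in mutant and 1184 ± 32.7 in WT hearts, and the second E1 gene, *ogdhb*, 312 ± 11.5 in mutant and 294 ± 63 in WT hearts (SD, n = 3 each).

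Succinyl-CoA ligase makes succinate together with ATP or GTP; *suclg1* encodes the shared alpha subunit, *sucla2* the ATP-forming and *suclg2* the GTP-forming beta subunit. *suclg2* (ENSDARG00000044914, chromosome 11, 16603544 to 16840555) stood at 188, 171 and 185 in mutant hearts, against 214, 228 and 234 in WT hearts (log2 difference −0.31, SE 0.12, 95% interval −0.57 to −0.05, unadjusted p = 0.0209, limma adjusted p = 0.675). *suclg1* stood at 1070, 1077 and 1147 in mutant hearts, against 1216, 1282 and 1178 in WT hearts (log2 difference −0.16, SE 0.0835). *sucla2* stood at 714, 708 and 718 in mutant hearts, against 841, 767 and 784 in WT hearts (log2 difference −0.16, SE 0.0869). In all 3 genes every mutant library was below every WT library, as in 5.53% of all genes tested, and none passed the adjusted test. With values scaled to the protein-coding total the groups of *sucla2* overlapped, and those of *suclg1* and *suclg2* did not. Over 15 alternative settings the difference of *suclg2* stayed between −0.35 and −0.27, with an unadjusted p under 0.05 in 12 of them and adjusted p between 0.538 and 0.91.

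From fumarate to oxaloacetate all 4 members were below 0, with log2 differences between −0.20 and −0.12. Fumarase, *fh*, stood at 1039, 964 and 1098 in mutant hearts, against 1195, 1126 and 1130 in WT hearts (log2 difference −0.16, SE 0.0864). Mitochondrial malate dehydrogenase, *mdh2*, stood at 1538, 1394 and 1472 in mutant hearts, against 1679, 1649 and 1541 in WT hearts (log2 difference −0.14, SE 0.0831, limma adjusted p = 0.826). Neither gene's groups overlap, in *mdh2* by a margin of 1538 to 1541. The groups of both genes overlapped with values scaled to the protein-coding total. Cytosolic malate dehydrogenase, part of the malate-aspartate shuttle, is encoded by *mdh1aa* and *mdh1ab*. *mdh1aa* stood at 930, 768 and 906 in mutant hearts, against 1016, 1044 and 919 in WT hearts (log2 difference −0.20, SE 0.0981, limma adjusted p = 0.772). *mdh1ab*, which the deposited table annotates as a polymorphic pseudogene, stood at 212, 210 and 218 in mutant hearts, against 338, 195 and 191 in WT hearts. WT replicate 1 alone sets the sign of its difference, which was −0.12 with all libraries and 0.14 without that library.

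Malic enzymes convert malate to pyruvate, *me1* in the cytosol and *me2* and *me3* in mitochondria. *me3* stood at 381, 329 and 368 in mutant hearts, against 417, 391 and 408 in WT hearts (log2 difference −0.18, SE 0.103). Its groups do not overlap, although they did with values scaled to the protein-coding total. The *me3* locus on chromosome 9 lies 18.9 kb from *mpc2*. *me2* stood at 442, 398 and 361 in mutant hearts, against 494, 492 and 405 in WT hearts (log2 difference −0.21, SE 0.115, limma adjusted p = 0.81), with mutant replicate 1 above WT replicate 3. *me1* averaged 93.7 ± 13 in mutant and 93.3 ± 16.9 in WT hearts (SD, n = 3 each). Over the 5 cytosolic members (*aco1*, *idh1*, *mdh1aa*, *mdh1ab* and *me1*), a split made after their values were seen, the median log2 difference was 0.01, and over the 29 tested mitochondrial members it was −0.16; this difference was not tested.

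**Figure D4:**
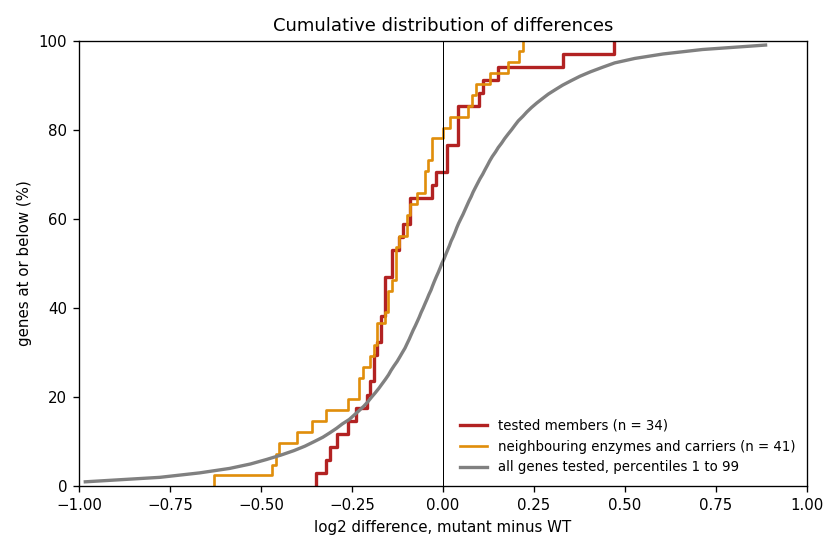
Cumulative share of genes (%) against the log2 difference (mutant minus WT) for the 34 tested members, the 41 tested neighbouring enzymes and carriers, and percentiles 1 to 99 of all 18901 genes tested. Both gene sets lie left of all genes around 0: 16 of the 34 members fall under the lower quartile of all genes, −0.15, and 3 above the upper quartile, 0.14.

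Neighbouring enzymes and carriers leaned the same way, and none of the 41 tested (of 46 with a row) passed over all genes (lowest limma adjusted p = 0.487). At an unadjusted p under 0.05 there were 3, or 7.32%, against 6.6% of all genes tested. Of the 41, 33 had a log2 difference below 0, or 80.5%, against 50.5% of all genes tested. The other 8 were above 0, and the median was −0.13. The cycle's enzymes outside the members were all 5 below 0 (median −0.14). Of the 12 tested carriers and shuttle enzymes 10 were below 0 (median −0.15). Their lowest unadjusted p was that of the cytosolic aspartate aminotransferase *got1*, at 1649, 1446 and 1607 in mutant and 1844, 1784 and 1590 in WT hearts, and the phosphate carrier *slc25a3b*, the list's highest mean, averaged 2965 ± 168 in mutant and 3016 ± 152 in WT hearts (SD, n = 3 each).

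Among 15 tested genes of anaplerosis and glutamine use, 12 were below 0 (median −0.13). *pck2*, the mitochondrial phosphoenolpyruvate carboxykinase, stood at 68, 63 and 83 in mutant hearts, against 88, 125 and 122 in WT hearts, without overlap (log2 difference −0.63, SE 0.193, unadjusted p = 0.00541, limma adjusted p = 0.487). Glutamate dehydrogenase *glud1b*, which makes 2-oxoglutarate from glutamate, stood at 825, 904 and 911 in mutant hearts, against 1001, 1021 and 1070 in WT hearts, also without overlap (log2 difference −0.23, limma adjusted p = 0.654). The 9 genes of lipoate attachment and related 2-oxoacid dehydrogenases had a median of −0.04, with 6 below 0. The lipoate synthase gene *lias* had their lowest unadjusted p (log2 difference −0.47, SE 0.24, limma adjusted p = 0.783), and the kinase gene *bckdk*, the highest mean, averaged 372 ± 6 in mutant and 384 ± 18.6 in WT hearts (SD, n = 3 each).

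Other gene groups also varied between these libraries. Relative to each gene's mean over the 6 libraries, the members' median log2 deviation was −0.026, −0.107 and −0.026 in mutant replicates 1 to 3, and 0.133, 0.065 and −0.035 in WT replicates 1 to 3. WT replicate 3 therefore stood among the mutant libraries, and WT replicate 1 stood highest. The 10 cardiomyocyte markers had their highest median in WT replicate 1 too (0.163). Their log2 differences between genotypes ran from −0.13 to 0.12, with a median of −0.02, 5 below 0 and 5 above.

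The 13 protein genes of the mitochondrial chromosome all had log2 differences below 0 (median −0.24), against 50.5% of all genes tested. In 12, or 92.3%, every mutant value lay below every WT value, against 5.53% of all genes tested. At an unadjusted p under 0.05 there were 8, or 61.5%, against 6.6% of all genes tested. None passed the adjusted test (limma, lowest adjusted p = 0.563). Their median deviation was −0.176, −0.047 and −0.161 in mutant and 0.271, 0.079 and 0.010 in WT replicates 1 to 3. The 6 tested liver and yolk markers had a median log2 difference of −0.75. All 6 had an unadjusted p under 0.05, against 6.6% of all genes tested, and none passed the adjusted test (limma, lowest adjusted p = 0.114). Of the 9 in the list, the summed values were 8565 to 15330 in mutant and 13722 to 21933 in WT hearts. Outside the 6 tested, *fabp10a*, *vtg1* and *vtg2* were under the minimum. The hepatocyte gene *fabp10a* stood at 0, 1 and 2 in mutant hearts, against 3, 25 and 87 in WT hearts. *vtg1* stood at 1, 1 and 1 in mutant and 4, 5 and 8 in WT hearts, and *vtg2* at 9, 3 and 13 in mutant and 4, 3 and 6 in WT hearts. The 6 tested blood markers had a median of 0.30 (summed values of 74878 to 130529 in mutant and 81551 to 92262 in WT hearts), the 6 of endocardium and endothelium 0.18 (10826 to 11627 in mutant and 8974 to 10165 in WT hearts), and the 9 of fast skeletal muscle −0.06 (24946 to 35523 in mutant and 24007 to 44270 in WT hearts). Medians were 0.07 for the 4 skin markers (48218 to 59522 in mutant and 41236 to 64787 in WT hearts) and 0.01 for the 4 neuronal markers (540 to 600 in mutant and 563 to 611 in WT hearts). At an unadjusted p under 0.05 (limma) were 3 of the 6 endocardial and endothelial markers, or 50%, against 6.6% of all genes tested. These 3, *cdh5*, *tie1* and *nfatc1*, had differences of 0.27 to 0.32 and every mutant value above every WT value (5.57% of all genes tested). The differences of *kdrl*, *fli1a* and *tek* ran from −0.09 to 0.08. Of the 6 blood markers, 2 had an unadjusted p under 0.05. In neither list did a marker pass the adjusted test. The part of these cell types in the members' differences was not tested.

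**Figure D5:**
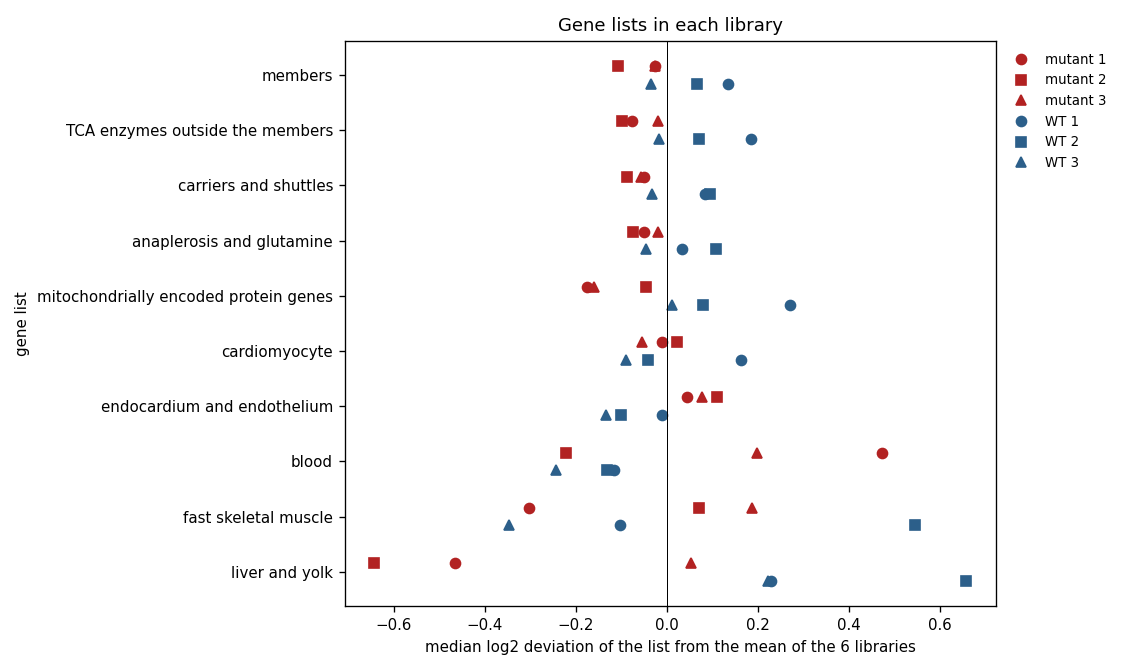
Median log2 deviation of each gene list from its genes' means over the 6 libraries, by library (mutant above WT within each list; marker shape is the replicate number). Members run from −0.107 to −0.026 in mutant and from −0.035 to 0.133 in WT libraries, and cardiomyocyte markers overlap between the genotypes.

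Precision limits what these values can show. The SE of a member ranged from 0.0786 to 0.379, with a median of 0.114 on the log2 scale. The median SE over all genes tested was 0.207. Within a genotype the members' coefficient of variation had a median of 6.56% in mutant and 7.62% in WT hearts, from 0.673% for *idh1* to 44.3% for *pcxb* in mutant hearts.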

How the data were processed

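Total RNA from 6 pools of hearts was prepared with a Clontech Pico Input kit from 6.5 ng and sequenced as single 75-base reads, per the labels' protocols. STAR 2.4.0a, featureCounts 1.4.5-p1 and the GRCz10 (danRer10) assembly are named in the submitters' processing notes; no source used here gives strand use or the scaling method. The deposited values are a score, read counts scaled by the authors and rounded: in 3 libraries, 5 to 12 of the integers 1 to 100 are skipped, so they are not raw counts and no count model was run. Depth before scaling is therefore unknown here.

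Values were analysed as log2(value + 1), which understates the change of low genes. The minimum was 10 in any 3 or more libraries. The tool was limma 3.58.1 (R 4.3.3), run with a variance trend for mutant against WT, with Benjamini-Hochberg adjustment over all 18901 genes (call: adjusted p under 0.05). Intervals are 95%. The scripts were tested on simulated data.

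The members and lists were chosen with earlier results of these data known. Members given by library follow a rule: an adjusted or unadjusted p under 0.05, or the highest mean or lowest p of a role; further members given by library were added after their values were seen. Alternatives were other pseudocounts, value filters, TMM (own implementation), quantile and protein-coding scaling (the last chosen after seeing the data), library weights, a replicate block and each library left out. Member identifiers are those of the table, 35 of 36 also in the gene name table used. A gene that the naming rule picks from the neighbouring enzymes is not reported here.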

Additional observations from a re-analysis of the deposited data

How the results depend on the processing

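No member passed the adjusted test (limma) under any of the 15 alternatives, with a lowest adjusted p of 0.382, and none of the neighbouring enzymes and carriers did. Among all genes 7 passed, 15 with the replicate number as a replicate block, and 5 to 46 with 1 library left out (46 without WT replicate 2, 11 without WT replicate 1). Same-numbered libraries did not deviate together (r = 0.0449, −0.0241 and −0.00314 for replicates 1 to 3), so the numbers were not taken as pairs. The members' median difference stayed below 0 throughout, from −0.16 without WT replicate 3 to −0.074 without WT replicate 1. Members with every mutant value below every WT value numbered 10 of 34, or 29.4%, against 5.53% of all genes tested. There were 4 of 34 with protein-coding scaling, against 4.25% of all genes. With quantile normalization there were again 10, against 5.62% of all genes, but *cs* and *idh3b* took the place of *pdhb* and *mdh2*. Leaving out 1 library gave 10 to 17 of 34 (17 without WT replicate 3), against 9.87% to 10.7% of all genes. Members above numbered 2, against 5.57% of all genes tested, or 1 with quantile normalization (against 5.96% of all genes), which lost *idh1*. With 1 library left out they numbered 2 or 3, against 9.94% to 10.8% of all genes. The added member was *pdk2b* without mutant replicate 3, *mdh1ab* without WT replicate 1 and *ogdhb* without WT replicate 2. The cause was not tested.

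Of 34 members, 23 kept the sign of their difference under every alternative they were fitted in; *pdk2b* and *pdp2*, both among the 23, could not be fitted with a minimum value of 50. The other 11 changed it when 1 library was left out, with ranges of −0.59 to 0.10 (*pcxb*), −0.02 to 0.27 (*pdk1*), −0.12 to 0.08 (*pdk2a*), −0.01 to 0.10 (*aco1*), −0.04 to 0.15 (*idh3a*), −0.08 to 0.11 (*idh3g*), −0.02 to 0.03 (*ogdha*), −0.02 to 0.27 (*ogdhb*), −0.06 to 0.03 (*dlst*), −0.27 to 0.14 (*mdh1ab*) and −0.10 to 0.15 (*me1*). With 2 libraries in 1 genotype the spread rests on fewer samples. Rounding and the unknown scaling limit what can be said of *pdha1b*, *pdk3b* and *pdk2b*, whose values are lowest.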
